A study of Mus musculus with 8 samples.

Results

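The genes described here are 35 genes of resident macrophages and innate immunity, chosen by symbol. They cover macrophage lineage and surface genes, 3 complement C1q chains, Fc receptors, signalling adaptors, lysosomal enzymes, leukocyte integrins and major histocompatibility class II genes. All 35 stood among the 47729 genes of the deposited tables, and 34 of them passed the filter on low counts that left 18548 genes for testing; Timd4 did not. RNA-seq was done on whole kidneys at postnatal day 8, in 4 libraries from Six2Cre+KCTD1fl/fl mice, here called knockout, and in 4 libraries from control littermates, which the labels call wildtype. The Cre alleles and floxed alleles that the controls carry are not given in the labels, nor is it stated whether each library came from a separate animal, so the p-values speak to the spread among these 8 libraries. Six2-driven Cre acts in nephron progenitors, and macrophages, vessels and stroma descend from other cells.

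Kidney macrophages are mononuclear phagocytes that lie between the tubules, take up dead cells and immune complexes, and depend on signalling through the receptor Csf1r. Many are seeded before birth and keep themselves by division, while others come from blood monocytes. C1q, which tags targets for clearance, and class II molecules, which present peptides to T cells, are made by such cells, and Fc receptors bind antibody.

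The libraries held 14457760 to 20741076 counts. Kctd1, the targeted gene, measured 22.4, 25.4, 25.8 and 23.5 CPM (counts scaled to library size with TMM factors) in knockout 1 to 4, against 32.1, 28.9, 32.6 and 32.6 CPM in wildtype 1 to 4, so the groups did not overlap. At 77% of wildtype its Benjamini-Hochberg adjusted p was 0.279 with edgeR, short of the threshold, while DESeq2 gave 0.016, past it; the alternatives ran from 0.016 to 0.63. Tubule genes were abundant, as the kidney label has it: Slc34a1, the proximal tubule phosphate transporter, averaged 303 TPM (transcript abundance per length and library) over the 8 libraries and Umod, uromodulin of the thick ascending limb, 214 TPM. Knockout 2 and wildtype 3 carried abundant Xist reads, with 81994 and 101295 counts, and knockout 2 also had 5.39% of its counts on an 18S ribosomal RNA row, the highest share of the 8 libraries. A factor of 1.31 brought its deposited TPM values to the TMM scale, against factors of 0.902 to 1.004 in the other libraries.

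No macrophage gene differed between knockout and wildtype kidneys beyond the threshold set over all genes. None of the 34 tested members passed the threshold (0 by the quasi-likelihood test of edgeR at a Benjamini-Hochberg adjusted p under 0.05, 0 by DESeq2 and 0 by limma-voom). Over all 18548 genes 0.0809% passed with edgeR, 0.771% with DESeq2 and 0.0863% with limma-voom. At an unadjusted edgeR p under 0.05 there were 3 members, 1 higher in knockouts (Cd74) and 2 lower (Csf1r and Lyz2), where 6.18% of all genes passed that mark, 3.11% higher and 3.08% lower. DESeq2 and limma-voom also gave 3 each, where 6.56% and 6.45% of all genes passed. The median log2 fold change of knockout over wildtype was 0.00 for the members and 0.00 for all genes, with 17 members above 0 and 17 below, in a range of -1.01 to 0.42. For 27 of the 34 members the 95% interval of the difference lay within 2-fold either way, and for 15 within 1.5-fold. In whole kidneys, fewer macrophages and less RNA of a gene per macrophage cannot be told apart.

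**Figure D1:**
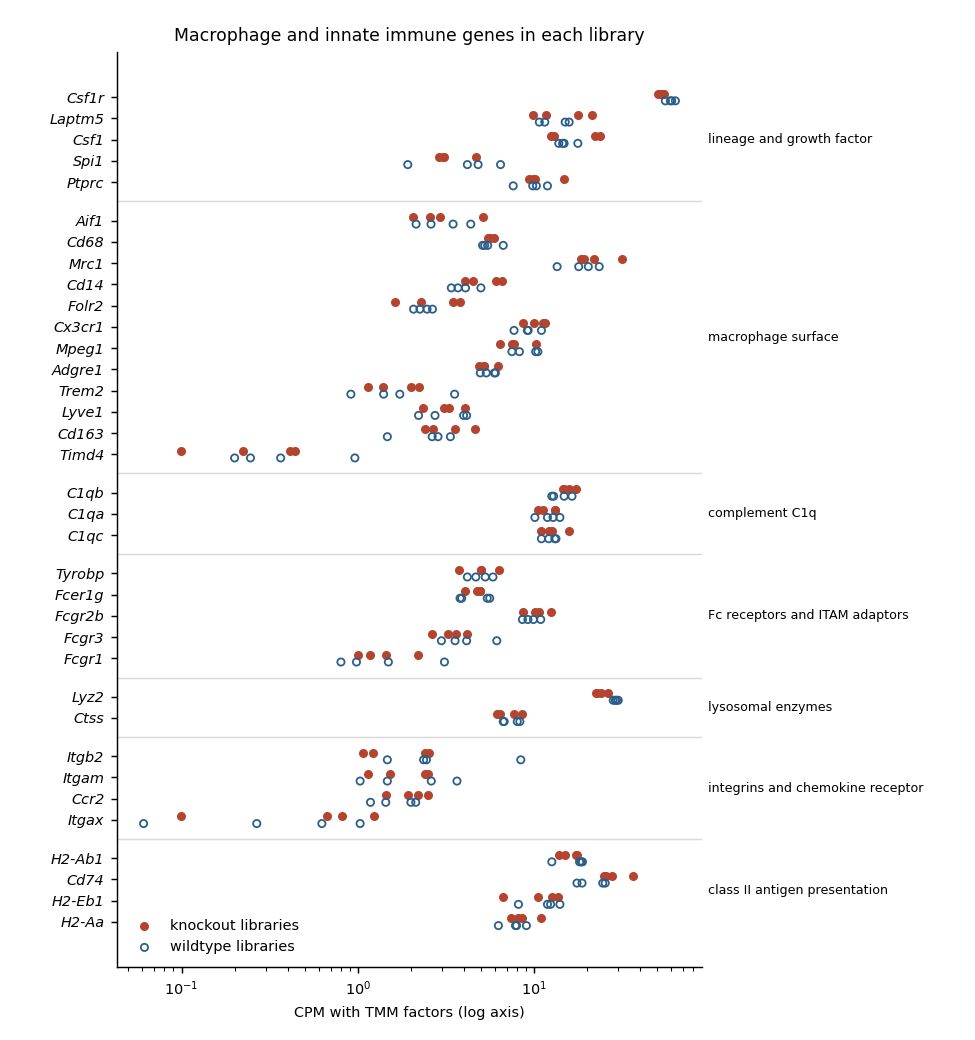
CPM of each of the 35 genes in every library on a log axis, with filled red points for the 4 knockout libraries and open blue points for the 4 wildtype libraries, grouped by role. The groups overlap for all genes but Csf1r and Lyz2, whose 4 knockout points lie below the 4 wildtype points.

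**Figure D2:**
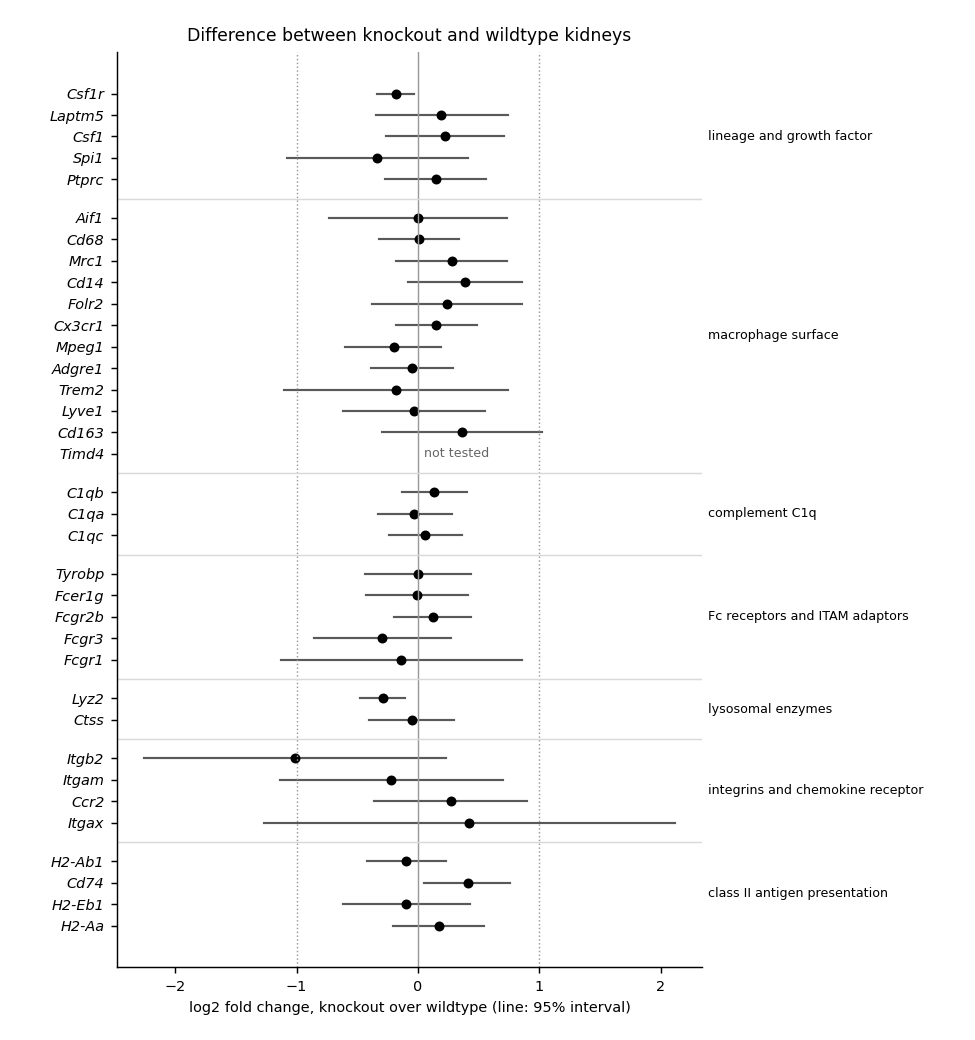
Log2 fold change of knockout over wildtype for each of the 34 tested genes (point) with its 95% interval (line), and dotted lines at a 2-fold difference. The intervals of Csf1r, Lyz2 and Cd74 leave out 0; the widest belong to the weakly expressed integrin genes Itgax and Itgb2.

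Among the genes of macrophage identity, Csf1r, the receptor for the macrophage growth factors Csf1 and Il34, was the one with the most reads, 992 per library on average. It measured 54.7, 52.5, 52.3 and 50.6 CPM in knockout 1 to 4, against 59.3, 55.5, 60.3 and 63.3 CPM in wildtype 1 to 4. All 4 knockout libraries lay below all 4 wildtype ones, with 0.831 CPM between the nearest pair. The means were 52.5 ± 1.67 CPM in knockouts and 59.6 ± 3.20 CPM in wildtypes (SD, n = 4 each), which is a log2 fold change of -0.18 ± 0.07 (SE), and the difference missed the threshold (Benjamini-Hochberg adjusted p = 0.706 with edgeR, and 0.483 to 0.947 over its alternatives). Groups that do not overlap were seen in 2 of the 34 members, Csf1r and Lyz2, and in 4.03% of all genes. Exons of Csf1r overlap those of Hmgxb3 on the opposite strand over 15.1% of their length in the GENCODE M21 annotation, and whether the counting used strand was not given in these sources. Hmgxb3 itself, looked at for this reason, averaged 30.6 ± 3.37 CPM in knockouts and 30.5 ± 2.04 CPM in wildtypes.

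Spi1, which encodes PU.1, the transcription factor that directs myeloid development, measured 3.08, 3.06, 4.69 and 2.89 CPM in knockout 1 to 4, against 6.45, 4.81, 4.18 and 1.92 CPM in wildtype 1 to 4. The wildtype values spanned the knockout values on both sides (log2 fold change -0.34, 95% interval -1.08 to 0.41; -0.0834 without wildtype 1 and -0.588 without wildtype 4). Ptprc, the phosphatase CD45 found on all nucleated blood cells, measured 9.81, 9.34, 14.8 and 10.1 CPM in knockout 1 to 4, against 10.3, 9.82, 7.61 and 11.9 CPM in wildtype 1 to 4. Knockout 3 stood above the rest and the groups overlapped (log2 fold change 0.15, 95% interval -0.27 to 0.56). Laptm5, a lysosomal membrane protein of blood cells, averaged 15.2 ± 5.37 CPM in knockouts and 13.3 ± 2.52 CPM in wildtypes, and its lowest and highest libraries of all 8 were both knockouts.

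The growth factor gene Csf1, made in the kidney largely by cells other than macrophages, measured 12.4, 23.7, 22.1 and 12.9 CPM in knockout 1 to 4, against 17.7, 13.8, 14.5 and 14.8 CPM in wildtype 1 to 4. Knockout 2 and knockout 3 lay above all wildtype libraries, while knockout 1 and knockout 4 lay below them (log2 fold change 0.22, 95% interval -0.26 to 0.71). Il34, the other ligand of Csf1r, averaged 15.3 ± 2.47 CPM in knockouts and 14.7 ± 1.47 CPM in wildtypes (log2 fold change 0.05). Per length Il34 was the more abundant: the ratio of its TPM to that of Csf1 ran from 1.97 to 5.35 over the knockout libraries and from 3.54 to 4.37 over the wildtype libraries.

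Among surface genes of resident macrophages, Adgre1, which encodes F4/80, measured 6.22, 4.89, 5.17 and 5.18 CPM in knockout 1 to 4, against 6.03, 5.95, 5.35 and 4.95 CPM in wildtype 1 to 4. Knockouts held both the highest and the lowest of the 8 values (log2 fold change -0.05, 95% interval -0.39 to 0.29). The fractalkine receptor gene Cx3cr1 measured 11.5, 11.3, 9.93 and 8.61 CPM in knockout 1 to 4, against 9.25, 9.15, 11 and 7.69 CPM in wildtype 1 to 4. These groups also overlapped (log2 fold change 0.15, 95% interval -0.18 to 0.49). Its ligand gene Cx3cl1 averaged 44.9 ± 4.95 CPM in knockouts and 46.1 ± 3.30 CPM in wildtypes. Mrc1, the mannose receptor CD206, measured 19.2, 18.5, 31.4 and 21.9 CPM in knockout 1 to 4, against 23.4, 20.3, 13.5 and 17.9 CPM in wildtype 1 to 4. Knockout 3 was the highest and wildtype 3 the lowest (log2 fold change 0.28, 95% interval -0.18 to 0.73).

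Lyve1, a hyaluronan receptor of perivascular macrophages and also of lymphatic endothelium, measured 3.08, 4.06, 3.31 and 2.34 CPM in knockout 1 to 4, against 4.14, 2.74, 3.98 and 2.21 CPM in wildtype 1 to 4. Neither group stood apart (log2 fold change -0.03, 95% interval -0.62 to 0.55). Prox1, the transcription factor that defines lymphatic endothelium and is also made in tubule cells, averaged 14.9 ± 4.32 CPM in knockouts and 14.7 ± 1.33 CPM in wildtypes. Timd4, the phosphatidylserine receptor Tim-4 of some long-lived resident macrophages, had 7, 4, 6 and 2 counts in knockout 1 to 4, against 6, 3, 5 and 20 counts in wildtype 1 to 4. With 53 counts in all it was too weak to test, and 20 of them came from wildtype 4. Trem2, a lipid receptor that signals through Tyrobp, had 32, 40, 20 and 23 counts in knockout 1 to 4, against 15, 21, 72 and 36 counts in wildtype 1 to 4. Scaled to CPM, the span of the wildtype libraries held all 4 knockout values (log2 fold change -0.18, 95% interval -1.10 to 0.74).

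The remaining surface genes overlapped between the groups too. Cd163, the haemoglobin scavenger receptor, averaged 3.31 ± 0.987 CPM in knockouts and 2.58 ± 0.796 CPM in wildtypes, and Folr2, a folate receptor of resident macrophages, 2.79 ± 1 CPM in knockouts and 2.36 ± 0.255 CPM in wildtypes. Folr2 shares 63.1% of its exonic bases with Gm10602 on the opposite strand. Cd14, the endotoxin co-receptor, averaged 5.29 ± 1.2 CPM in knockouts and 4.04 ± 0.694 CPM in wildtypes (log2 fold change 0.39, 95% interval -0.08 to 0.86). The pore-forming Mpeg1 of phagosomes averaged 7.93 ± 1.59 CPM in knockouts and 9.13 ± 1.49 CPM in wildtypes. Cd68, an endosomal glycoprotein, was nearly level at 5.65 ± 0.210 CPM in knockouts and 5.62 ± 0.725 CPM in wildtypes, as was the actin-binding Aif1 (Iba1) at 3.17 ± 1.34 CPM in knockouts and 3.14 ± 0.988 CPM in wildtypes.

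The 3 chains of C1q, which assemble into 1 recognition molecule and whose genes lie side by side on chromosome 4 (GRCm38, minus strand, from 136880129, the lowest coordinate of C1qb, to 136898803, the highest of C1qa), did not differ between the groups beyond their spread. C1qa measured 11.2, 10.5, 13.2 and 13.1 CPM in knockout 1 to 4, against 11.9, 12.8, 14 and 10.1 CPM in wildtype 1 to 4. C1qb measured 15.7, 14.7, 17.2 and 14.6 CPM in knockout 1 to 4, against 16.4, 12.9, 14.8 and 12.6 CPM in wildtype 1 to 4. C1qc measured 12.1, 10.9, 15.8 and 12.7 CPM in knockout 1 to 4, against 13.1, 12.1, 13.3 and 11 CPM in wildtype 1 to 4. All 3 overlapped, with knockout 3 the highest library for C1qb and C1qc and wildtype 3 for C1qa. Log2 fold changes were -0.03 (95% interval -0.33 to 0.28) for C1qa, 0.13 (-0.13 to 0.40) for C1qb and 0.06 (-0.24 to 0.36) for C1qc. Within a library the TPM ratio of C1qc to C1qb was 0.727 ± 0.0704 in knockouts and 0.771 ± 0.0525 in wildtypes (SD, n = 4 each), and that of C1qa to C1qb 0.820 ± 0.0903 in knockouts and 0.920 ± 0.134 in wildtypes.

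The start regions of C1qb and C1qc, neighbours that encode chains of the same molecule, are printed here. Each is 300 bases from RefSeq on GRCm38.p6, 250 before the start and 50 from it on, 5′ to 3′ on the gene's own strand, which is the minus strand for both. Capitals mark GAGGAA or its reverse complement TTCCTC, the core bound by PU.1 and related ETS factors. C1qb (chr4:136886151-136886450) holds it 30 bases and C1qc (chr4:136892865-136893164) 193 bases before the start.
C1qb: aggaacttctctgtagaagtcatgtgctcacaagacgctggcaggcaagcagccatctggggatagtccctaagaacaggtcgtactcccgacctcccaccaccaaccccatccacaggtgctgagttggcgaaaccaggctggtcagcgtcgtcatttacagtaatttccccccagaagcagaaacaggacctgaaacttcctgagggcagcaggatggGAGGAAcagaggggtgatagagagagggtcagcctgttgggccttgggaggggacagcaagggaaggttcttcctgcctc
C1qc: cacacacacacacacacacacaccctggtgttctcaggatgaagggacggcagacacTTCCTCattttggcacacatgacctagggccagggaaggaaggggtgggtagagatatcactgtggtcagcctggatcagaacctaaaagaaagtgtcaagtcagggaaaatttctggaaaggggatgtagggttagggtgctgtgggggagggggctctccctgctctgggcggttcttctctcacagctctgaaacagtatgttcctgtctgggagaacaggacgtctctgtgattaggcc
There were 28 start regions of 25 members. Of the 28, 13 (46.4%) carried GAGGAA on either strand, against 28.3% of all 32851 regions of this length. Those 13 belong to 12 members, among them C1qb and C1qc but not C1qa, whose start region is not printed. These matches describe letters and do not show binding. 

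Fc receptor genes overlapped between the groups. Fcgr2b, the inhibitory receptor for IgG, measured 8.61, 10.7, 10.1 and 12.5 CPM in knockout 1 to 4, against 8.58, 9.22, 10.9 and 9.91 CPM in wildtype 1 to 4. Fcgr3, an activating receptor, measured 2.64, 3.61, 3.24 and 4.18 CPM in knockout 1 to 4, against 2.98, 4.14, 6.14 and 3.56 CPM in wildtype 1 to 4. Knockout 4 was the highest of all for Fcgr2b and wildtype 3 for Fcgr3, and the groups overlapped for both (log2 fold changes 0.12, 95% interval -0.20 to 0.44, and -0.30, 95% interval -0.86 to 0.27). The TPM ratio of Fcgr3 to Fcgr2b was 0.361 ± 0.0161 in knockouts and 0.478 ± 0.111 in wildtypes, and its 4 knockout values, 0.341 to 0.376, lay below the 4 wildtype values of 0.385 to 0.625. This ratio was 1 of 15 looked at and was not tested. Of all stretches of 31 bases in Fcgr3 transcripts, 13.4% also occur in Fcgr2b, so reads can be split between these neighbours. Fcgr1, the high-affinity receptor, measured 2.20, 1.17, 1.45 and 0.996 CPM in knockout 1 to 4, against 3.10, 0.802, 0.982 and 1.49 CPM in wildtype 1 to 4. It was the weakest of the 3 receptors, its highest values were those of knockout 1 and wildtype 1, and the groups overlapped.

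Adaptors that signal through immunoreceptor tyrosine-based activation motifs (ITAM) did not separate the groups. Fcer1g, the Fc receptor gamma chain, measured 4.90, 4.06, 4.90 and 4.73 CPM in knockout 1 to 4, against 5.42, 3.88, 5.60 and 3.80 CPM in wildtype 1 to 4. Tyrobp (DAP12) measured 4.97, 3.73, 6.28 and 4.98 CPM in knockout 1 to 4, against 5.84, 5.28, 4.67 and 4.18 CPM in wildtype 1 to 4. For Fcer1g the wildtype libraries lay on both sides of the knockouts, and for Tyrobp the knockouts lay on both sides of the wildtypes. Log2 fold changes were -0.01 (95% interval -0.43 to 0.41) for Fcer1g and 0.00 (-0.44 to 0.44) for Tyrobp.

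Lyz2, which encodes the lysozyme of macrophages and other myeloid cells, had the smallest p of the members. It measured 26.2, 22.8, 23.9 and 22.3 CPM in knockout 1 to 4, against 30, 28.9, 29.3 and 28.1 CPM in wildtype 1 to 4. All 4 knockout libraries lay below all 4 wildtype ones, with a gap of 1.93 CPM. The means of 23.8 ± 1.70 CPM in knockouts and 29.1 ± 0.807 CPM in wildtypes (SD, n = 4 each) put knockout at 81.8% of wildtype, at a log2 fold change of -0.29 ± 0.08 (SE, 95% interval -0.48 to -0.11). Over all genes the difference missed the threshold (Benjamini-Hochberg adjusted p = 0.468 with edgeR, and 0.145 to 0.839 over its alternatives, the lowest with DESeq2). Of the 31-base stretches of Lyz2, 32.8% also occur in its neighbour Lyz1, which had 0 to 7 counts per library. Ctss, the protease cathepsin S that trims the class II invariant chain, measured 6.41, 6.12, 8.56 and 7.72 CPM in knockout 1 to 4, against 6.76, 8.02, 8.30 and 6.68 CPM in wildtype 1 to 4. Its groups overlapped (log2 fold change -0.05, 95% interval -0.40 to 0.30). The TPM ratio of Lyz2 to Csf1r, the pair without overlap, was 1.85 ± 0.079 in knockouts and 2 ± 0.137 in wildtypes, with overlapping values.

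Ccr2 and the leukocyte integrin genes were weak in both groups. Ccr2, the receptor that brings monocytes out of the blood, measured 1.45, 2.5, 1.93 and 2.19 CPM in knockout 1 to 4, against 2.13, 2, 1.18 and 1.44 CPM in wildtype 1 to 4. Its groups overlapped (log2 fold change 0.27, 95% interval -0.36 to 0.90). Per length, the resident marker Cx3cr1 was 3.84 to 7.93 times as abundant as Ccr2 in the knockout libraries and 4.23 to 9 times in the wildtype libraries. Itgax (CD11c), an integrin of dendritic cells and some macrophages, had 13, 12, 18 and 2 counts in knockout 1 to 4, against 1, 4, 21 and 13 counts in wildtype 1 to 4. The groups overlapped, and with such counts the 95% interval of the log2 fold change ran from -1.27 to 2.12. Itgam (CD11b) averaged 1.89 ± 0.663 CPM in knockouts and 2.19 ± 1.18 CPM in wildtypes. In GENCODE M21, 68.7% of its exonic bases also belong to Gm49368 on the same strand, and its symbol stood on 2 rows, of which the one with 290 counts in all was used. Itgb2 (CD18), the beta chain that Itgam and Itgax share, measured 1.07, 1.22, 2.41 and 2.54 CPM in knockout 1 to 4, against 8.40, 1.47, 2.36 and 2.45 CPM in wildtype 1 to 4. Wildtype 1 alone stood far above the others, and the log2 fold change of -1.01 (95% interval -2.26 to 0.23) came to -0.215 without that library.

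Class II genes had log2 fold changes of both signs. Cd74, the invariant chain that guides class II molecules to endosomes, measured 25.5, 27.7, 36.2 and 24.9 CPM in knockout 1 to 4, against 17.5, 18.7, 25.3 and 24.5 CPM in wildtype 1 to 4. Only knockout 4 lay below the highest wildtype library. The means were 28.6 ± 5.20 CPM in knockouts and 21.5 ± 3.97 CPM in wildtypes (SD, n = 4 each). On the log2 scale the fold change was 0.41 ± 0.16 (SE), short of the threshold (Benjamini-Hochberg adjusted p = 0.711 with edgeR, and 0.531 to 0.999 over its alternatives). H2-Aa, the alpha chain of the I-A molecule, measured 8.49, 8.12, 11 and 7.42 CPM in knockout 1 to 4, against 6.27, 7.95, 9.04 and 7.84 CPM in wildtype 1 to 4. Knockout 3 was highest and wildtype 1 lowest, as a pair of ends that Cd74 shared, and the groups overlapped (log2 fold change 0.17, 95% interval -0.21 to 0.54).

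Both beta chains overlapped between the groups. H2-Ab1, the beta chain of I-A, measured 17.4, 13.9, 15.0 and 17.3 CPM in knockout 1 to 4, against 18.1, 18.8, 12.6 and 18.5 CPM in wildtype 1 to 4. Of the wildtype libraries 3 lay above all knockouts and wildtype 3 below them all (log2 fold change -0.10, 95% interval -0.42 to 0.23). H2-Eb1, the beta chain of I-E, measured 13.6, 12.7, 10.5 and 6.62 CPM in knockout 1 to 4, against 11.9, 12.4, 8.15 and 14 CPM in wildtype 1 to 4. Knockout 4 was the lowest and wildtype 4 the highest (log2 fold change -0.10, 95% interval -0.62 to 0.43). The TPM ratio of H2-Aa to H2-Ab1 ran from 0.379 to 0.648 over the knockout libraries and from 0.306 to 0.632 over the wildtype libraries. Over all 8 libraries the SD of the log2 ratio was 0.392 for H2-Aa to H2-Ab1, 0.366 for H2-Eb1 to H2-Ab1 and 0.181 for Cd74 to H2-Aa. Among the C1q chains it was 0.192 for C1qa to C1qb, 0.122 for C1qc to C1qb and 0.12 for C1qa to C1qc. Ciita, the coactivator that class II genes need, averaged 1.41 ± 0.397 CPM in knockouts and 1.17 ± 0.291 CPM in wildtypes.

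The start regions of 2 class II genes are printed for an element known from class II promoters. Capitals mark each match to ATTGG or its reverse complement CCAAT, the core of the Y box, which the factor NF-Y binds. In H2-Aa (chr17:34287774-34288073, minus strand) it begins 48 bases before the start, and in H2-Eb1 (chr17:34305617-34305916, plus strand) 59 and 35 bases before it.
H2-Aa: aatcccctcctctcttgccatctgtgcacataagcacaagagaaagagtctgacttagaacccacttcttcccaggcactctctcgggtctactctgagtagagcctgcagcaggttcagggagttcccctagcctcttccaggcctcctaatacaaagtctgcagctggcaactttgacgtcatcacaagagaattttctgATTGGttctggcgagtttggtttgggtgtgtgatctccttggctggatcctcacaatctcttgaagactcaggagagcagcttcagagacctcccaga
H2-Eb1: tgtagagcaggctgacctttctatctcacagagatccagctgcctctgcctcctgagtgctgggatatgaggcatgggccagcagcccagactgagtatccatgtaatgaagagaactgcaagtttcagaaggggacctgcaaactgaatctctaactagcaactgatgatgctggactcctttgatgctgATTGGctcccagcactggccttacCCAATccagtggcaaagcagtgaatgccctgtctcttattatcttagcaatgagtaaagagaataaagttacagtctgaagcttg
Over the members 11 of the 28 start regions (39.3%) held these letters, against 37.4% of all 32851 regions, a similar share. The matches do not show binding, or that each marked stretch is a working Y box. 

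Cd74, Csf1r and Cd14 lie on chromosome 18, as does Kctd1, at distances of 45.7, 45.9 and 21.6 Mb from it (GRCm38). Of the 463 tested genes of that chromosome 5.83% had an unadjusted edgeR p under 0.05, against 6.18% over all genes, and 2 of the 463 passed the adjusted threshold, of 15 over all 18548 genes. Whether position on this chromosome plays a part in the values of Cd74 and Csf1r was not tested.

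Per length, H2-Ab1 (13.1 ± 2.69 TPM over the 8 libraries, SD), Lyz2 (12.6 ± 2.31 TPM) and Cd74 (12.1 ± 2.76 TPM) were the most abundant members. They were followed by C1qb at 8.54 ± 1.21, Tyrobp at 7.67 ± 1.60, C1qa at 7.41 ± 1.25, Csf1r at 6.53 ± 1.03 and C1qc at 6.41 ± 1.08 TPM. The low end was formed by Itgam at 0.287 ± 0.136, Ccr2 at 0.259 ± 0.0542, Itgax at 0.128 ± 0.0933 and Timd4 at 0.0942 ± 0.0749 TPM. Each member overlapped its neighbour in this order over the 8 libraries, and only Fcgr2b lay above the next member, Ctss, in 8 of 8 libraries. Adgre1, although the classic marker of mouse macrophages, was a weak transcript at 0.884 ± 0.133 TPM.

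Summed over all 35 members, the TMM-scaled TPM was 134 ± 10.1 in knockouts and 133 ± 3.95 in wildtypes (SD, n = 4 each). On the TPM as deposited the sums were 129 ± 22.0 in knockouts and 140 ± 6.11 in wildtypes, where knockout 2 had 97.4 and the other knockouts 135 to 148. C1q chains summed to 22.7 ± 2.35 in knockouts and 21.8 ± 2.17 in wildtypes on the TMM scale, and class II genes to 37.9 ± 3.45 in knockouts and 35.1 ± 2.93 in wildtypes. As deposited, both differences had the opposite sign, with C1q at 21.9 ± 4.52 in knockouts and 22.9 ± 1.99 in wildtypes and class II at 36.4 ± 6.13 in knockouts and 37.0 ± 4.24 in wildtypes. The 2 lysosomal enzymes, led by Lyz2, were the role group without overlap, at 13.4 to 15.1 in knockouts and 16.2 to 17.4 in wildtypes on the TMM scale and 13.8 ± 2.38 in knockouts and 17.8 ± 0.427 in wildtypes as deposited. No p is given for these sums.

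**Figure D3:**
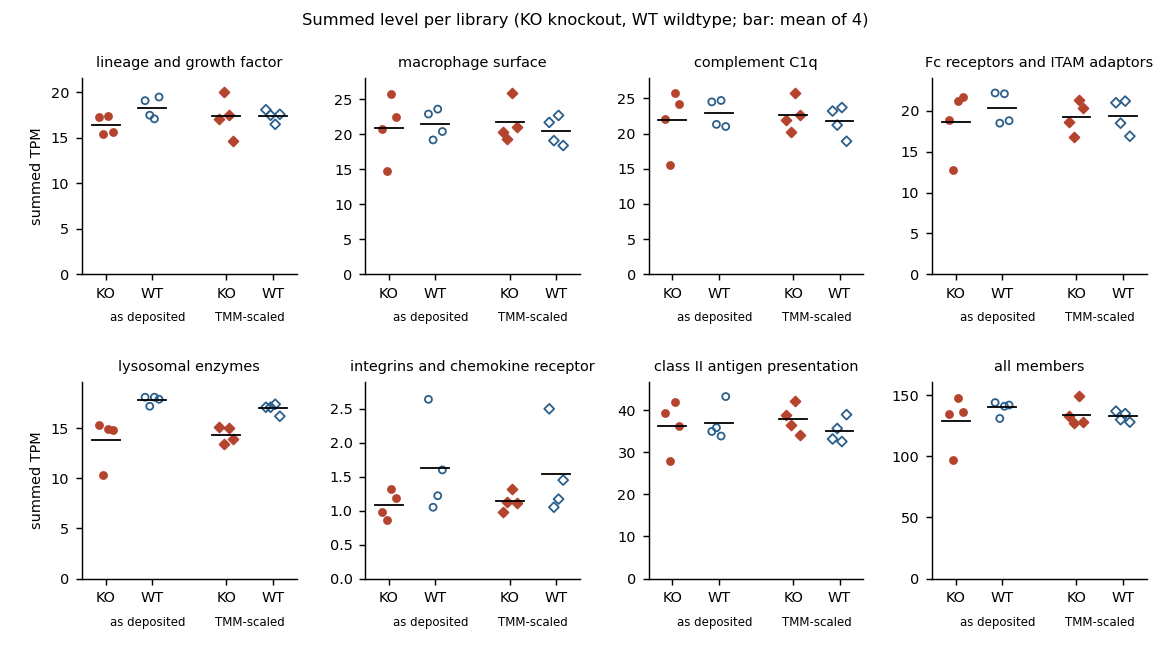
Summed TPM of each role group and of all 35 members per library, as deposited (circles) and rescaled with the TMM factors (diamonds), with knockout (KO) left of wildtype (WT) and bars for means of 4 libraries. Knockout 2 is the low circle that moves up to the others on the TMM scale; only the lysosomal enzymes separate the groups on both scales.

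The libraries differed in which members they raised. Knockout 3 was the highest library for 10 of the 35 members, among them Mrc1, Ptprc, Aif1, Tyrobp, Cd74 and H2-Aa, and the lowest for 1, Laptm5. Wildtype 1 was the highest for 6 and wildtype 4 the lowest for 7. As a median over the 34 tested members, no library departed from the 8-library mean by more than 0.12 on the log2 scale. The coefficient of variation between libraries of a group had a median of 21% over the members, where counting alone gives a median of 10.1%. Adgre1, Cd68 and Lyz2 varied hardly more than counting allows, at 0.98, 0.939 and 1.09 times that error, and Csf1r at 1.44 times. At the other end stood Itgb2 with 5.87, Mrc1 with 4.70, Laptm5 with 4.68, Csf1 with 4.52 and Cd74 with 3.88 times. Of the 3 members with an unadjusted p under 0.05, Csf1r and Lyz2 had a narrow spread and Cd74 a wide one.

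**Figure D4:**
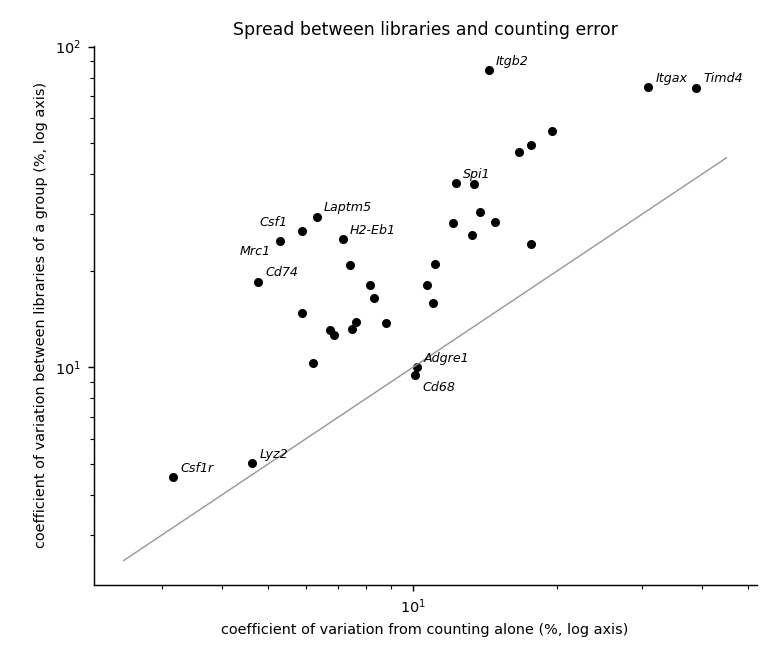
Coefficient of variation between libraries of a group against that from counting alone, in percent on log axes, for each of the 35 members; the line marks equality. Lyz2, Adgre1 and Cd68 lie near the line, and Itgb2, Csf1, Mrc1, Laptm5 and Cd74 lie highest above it relative to their counts.

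Other genes of the same pathways, and markers of other blood cells and of lymphatic endothelium, were set beside the members. They formed 17 lists of 174 symbols, of which 125 were tested. Of these 0 passed with edgeR and 0 with DESeq2, where 0.0809% and 0.771% of all genes passed. At an unadjusted edgeR p under 0.05 there were 3 higher and 1 lower, where the share over all genes was 6.18%. Groups without overlap, as in the next 3 genes, were seen in 4.03% of all genes. F13a1, the A subunit of coagulation factor XIII made by monocytes and tissue macrophages, measured 6.60, 6.67, 6.62 and 5.48 CPM in knockout 1 to 4, against 4.63, 2.21, 3.88 and 3.56 CPM in wildtype 1 to 4. Each knockout library lay above each wildtype library (log2 fold change 0.82 ± 0.22, Benjamini-Hochberg adjusted p = 0.412 with edgeR, and 0.0658 to 0.765 over its alternatives). Plcg2, a phospholipase downstream of ITAM receptors, averaged 39.9 ± 1.39 CPM in knockouts and 34.7 ± 1.5 CPM in wildtypes, also without overlap. Lyn, a kinase of the same cascade, averaged 33.5 ± 1.41 CPM in knockouts and 36.8 ± 1.11 CPM in wildtypes, without overlap in the opposite direction.

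Among 10 macrophage transcription factors the median log2 fold change was 0.04, with Tfec at 12.2 ± 2 CPM in knockouts and 9.54 ± 0.499 CPM in wildtypes and Zeb2 at 156 ± 33.3 CPM in knockouts and 123 ± 34.8 CPM in wildtypes. The 16 tested genes of the rest of the complement system had a median of 0.02. C1s1, a protease partner of C1q, averaged 59.8 ± 15.4 CPM in knockouts and 79.9 ± 9.53 CPM in wildtypes, and C2 63.3 ± 8.01 CPM in knockouts and 55.2 ± 8.54 CPM in wildtypes. ITAM signalling genes had a median of -0.12 (10 tested), class II loading and costimulation genes -0.14 (7 tested) and phagocytosis receptors and their bridging ligands -0.09 (9 tested). Of these last, Gas6 averaged 357 ± 14 CPM in knockouts and 383 ± 13.8 CPM in wildtypes, and Mfge8 133 ± 11 CPM in knockouts and 145 ± 13.9 CPM in wildtypes. Cd86, a costimulator, averaged 1.25 ± 0.510 CPM in knockouts and 2.51 ± 1.56 CPM in wildtypes, and H2-Ob 0.506 ± 0.196 CPM in knockouts and 0.822 ± 0.566 CPM in wildtypes.

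Lipid-associated macrophage genes had a median of -0.08 (7 tested), with Cd9 at 123 ± 11.4 CPM in knockouts and 135 ± 3.30 CPM in wildtypes and Ctsb at 454 ± 20.7 CPM in knockouts and 481 ± 13.6 CPM in wildtypes; tubule cells express both. Toll-like receptors and adaptors had a median of -0.02 (11 tested). Tlr7, a sensor of single-stranded RNA on the X chromosome, measured 5.09, 0.945, 1.24 and 1.24 CPM in knockout 1 to 4, against 9.25, 13.2, 1.18 and 1.73 CPM in wildtype 1 to 4. Its log2 fold change of -1.57 ± 0.90 came from the high values in wildtype 1 and wildtype 2. The high value in knockout 1 worked in the opposite direction. Irak4 averaged 14 ± 0.787 CPM in knockouts and 12.8 ± 1.34 CPM in wildtypes. Chemokines and growth factors had a median of 0.01 (8 tested), with Cxcl12 at 215 ± 13.6 CPM in knockouts and 193 ± 12.2 CPM in wildtypes and Cxcl1 at 0.651 ± 0.156 CPM in knockouts and 0.484 ± 0.206 CPM in wildtypes. The monocyte attractant Ccl2 had 76 counts over all 8 libraries, and Csf2 had none.

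Inflammatory cytokines were close to the floor: of 12 genes 3 were tested, and Il1b had 77 counts, Tnf 37 and Il6 17 over all 8 libraries. The tested ones were Casp1 at 0.459 ± 0.216 CPM in knockouts and 0.828 ± 0.247 CPM in wildtypes, Ptgs2 at 4.36 ± 2.75 CPM in knockouts and 2.59 ± 0.886 CPM in wildtypes, and Nos2 at 3.12 ± 0.568 CPM in knockouts and 3.14 ± 0.625 CPM in wildtypes. All 3 overlapped between the groups.

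Most markers of other blood cells were weak, apart from red cell genes, and their summed TPM overlapped between the groups with 1 exception, the monocyte markers. These sums are on the TPM as deposited and were not computed on the TMM scale. The factors to that scale were 1.31 for knockout 2 and 0.902 for wildtype 4. Neutrophil markers summed to 2.83 to 6.52 TPM over the knockout libraries and 4.21 to 8.90 TPM over the wildtype libraries, T and NK cell markers to 4.70 to 6.42 TPM in knockouts and 3.85 to 7.55 TPM in wildtypes, and B cell markers to 4.77 to 7.70 TPM in knockouts and 5.11 to 9.45 TPM in wildtypes. Dendritic cell markers summed to 3.86 to 5.41 TPM in knockouts and 5.13 to 5.84 TPM in wildtypes, most of it Zbtb46 (4.06 TPM on average), which endothelium also expresses. The 7 monocyte markers summed to 59.0 to 74.6 TPM in knockouts and 74.9 to 90.2 TPM in wildtypes, without overlap on the deposited scale, although their median log2 fold change was -0.02 on the TMM scale. The most abundant of them were Plac8 (37.8 TPM on average) and Ace (28.3 TPM), an enzyme of the proximal tubule brush border, which stood at 104% and 98.4% of wildtype in CPM. Chil3, a chitinase-like protein of myeloid cells, stood at 37.3% of wildtype with overlapping groups, and these 3 were named after their values were seen. Lymphatic endothelial markers summed to 12.7 to 22.5 TPM in knockouts and 16.9 to 20 TPM in wildtypes. Erythroid and platelet markers summed to 2790 to 5480 TPM in knockouts and 3590 to 5180 TPM in wildtypes, so blood was present in both groups. None of the markers in these lists was at 0 in all libraries, but some were at the floor. Ncr1 and Fcer1a had 2 counts each over all 8 libraries, and Elane had 3. What these cells contribute to the shared myeloid members was not tested.

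Members of these lists with the smallest p overlapped between the groups, apart from Plcg2, Lyn, F13a1, Slc12a3 and Umod. S100a8, a neutrophil alarmin, averaged 0.627 ± 0.349 CPM in knockouts and 1.02 ± 0.158 CPM in wildtypes, and Cxcr2 3.19 ± 0.659 CPM in knockouts and 3.50 ± 0.548 CPM in wildtypes. Cd3d averaged 0.477 ± 0.174 CPM in knockouts and 0.738 ± 0.138 CPM in wildtypes, Cd8a 2.63 ± 2.36 CPM in knockouts and 1.03 ± 0.810 CPM in wildtypes. Cd79b averaged 2.06 ± 0.515 CPM in knockouts and 2.72 ± 0.466 CPM in wildtypes. Itgae averaged 0.589 ± 0.238 CPM in knockouts and 0.991 ± 0.270 CPM in wildtypes, Ms4a2 of mast cells 1.42 ± 0.594 CPM in knockouts and 2.41 ± 1.17 CPM in wildtypes, and Kit 50.8 ± 7.37 CPM in knockouts and 57.0 ± 1.75 CPM in wildtypes. Ccl21a averaged 6.62 ± 3.07 CPM in knockouts and 4.22 ± 1.35 CPM in wildtypes, and Pdpn 25.0 ± 3.29 CPM in knockouts and 28.0 ± 0.734 CPM in wildtypes. Hba-a1 averaged 376 ± 43.5 CPM in knockouts and 326 ± 44.1 CPM in wildtypes, and Itga2b 9.67 ± 1.77 CPM in knockouts and 7.73 ± 1.26 CPM in wildtypes. Among the kidney genes Slc12a3, the thiazide-sensitive cotransporter, passed the threshold and fell to 247 ± 30.9 CPM in knockouts, against 464 ± 23.9 CPM in wildtypes (log2 fold change -0.91 ± 0.09, Benjamini-Hochberg adjusted p = 0.00634 with edgeR, and 1.28e-15 to 0.0796 over its alternatives). Umod averaged 1210 ± 96.3 CPM in knockouts and 831 ± 69.1 CPM in wildtypes without overlap and missed the threshold (Benjamini-Hochberg adjusted p = 0.0599 with edgeR, and 1.36e-06 to 0.753 over its alternatives).

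**Figure D5:**
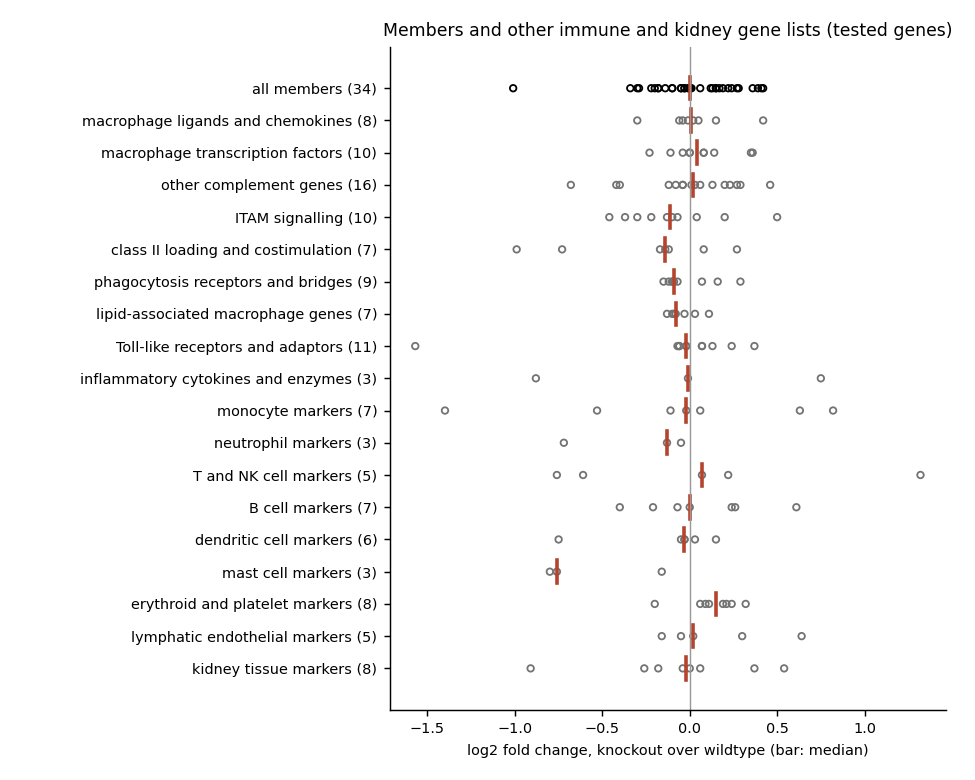
Log2 fold change of knockout over wildtype for each tested gene (circles) of the members and of 18 other lists, with the number tested in brackets and the median as a bar. Medians lie between -0.14 and 0.15 except for the 3 tested mast cell markers at -0.76, which is the value of Ms4a2. Cpa3 lies at -0.80 and Kit at -0.16, and 0 mast cell markers had an unadjusted edgeR p under 0.05. Slc12a3, at -0.91 in the kidney list, is the gene that passed the threshold.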

How the data were processed

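Whole-kidney RNA-seq was analysed from 2 tables that the authors deposited: estimated counts per gene and TPM, which is abundance per length and library. Per the submitters' processing notes, Salmon, DESeq2 1.14.1 and the mm10 build were used; whether counting used strand, and the annotation release, are not stated there. The tables were joined by gene over 47729 rows. The counts were used as deposited, in whole numbers. Library totals were 14457760 to 20741076, and intervals cover the spread between libraries.

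Counts were filtered with edgeR 4.0.16 (R 4.3.3), which left 18548 genes, scaled with TMM and tested with edgeR's quasi-likelihood test, knockout over wildtype, 4 libraries each, with Benjamini-Hochberg adjustment over all tested genes at 0.05. CPM values carry the TMM factors. The labels state no pairing of the libraries by number, so the fit has no replicate block. Whether same-numbered libraries share a litter or batch is not given in the labels, and litter and batch themselves were not tested. A fit with the replicate number as a block and the correlation of same-numbered libraries are given below. DESeq2 1.42.0, limma-voom (limma 3.58.1), limma on log2(TPM + 1) and log2(TPM + 0.1), other scalings and filters, and leaving out libraries were the alternatives. No 2 libraries of a group were duplicates. The fit was tested on simulated data. All members are named; per-library values are given for marker members, for those with the smallest p, and for other lists every gene past the threshold or else the 2 with the smallest p. Other genes (Hmgxb3, Lyz1, Gm10602, Gm49368, Zbtb46, Plac8, Ace, Chil3, Nos2, Prox1, Il34, Cx3cl1, Ciita, Ccl2, Csf2, Il1b, Tnf, Il6, Slc34a1, Itgb2 by library) were picked after seeing their values. The members and lists were chosen with earlier results of these data known. Start regions are RefSeq's (GRCm38.p6), and matched 25 of the 35 members. Results for some genes of the lists are not reported here.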

Additional observations from a re-analysis of the deposited data

Results flagged for a closer look

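Of 86 sets of 4 libraries examined for 1 library far from the other 3, 5 had one, where chance gives about 1 in 20, or 4.3. Spi1 stood at 4.69 CPM in knockout 3, against 2.89 to 3.08 CPM in the other knockouts. Ptprc stood at 14.8 CPM in the same library, against 9.34 to 10.1 CPM in the other knockouts. Itgb2 was 8.40 CPM in wildtype 1 (138 counts), against 1.47 to 2.45 CPM in the other wildtypes. H2-Ab1 was low in wildtype 3 at 12.6 CPM, against 18.1 to 18.8 CPM in the other wildtypes. The summed TPM of the lysosomal enzymes was low in knockout 2 at 10.3, against 14.8 to 15.3 in the other knockouts; with the TMM factors it was 13.4, against 13.9 to 15.1.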

How the results depend on the processing

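No member passed the adjusted threshold under any of the 21 alternatives (0 in each, lowest adjusted p 0.145 for Lyz2 with DESeq2). Over all genes 15 passed, against 27 with no filter on low counts, 143 with DESeq2, 5 with log2(TPM + 1), 5 with log2(TPM + 0.1), 3 without both libraries with Xist reads, 23 at an adjusted p under 0.1, 1147 unadjusted, and 10 to 52 on leaving out 1 library (10 without wildtype 3, 29 without knockout 3, 52 without wildtype 4); the cause was not tested. With the replicate number as a block 10 passed, of which 8 were among the 15; same-numbered libraries correlated at -0.081 to 0.0363 in their deviations, and 1 of 4 numbers had its own partner as the best. The median log2 fold change of the members was -0.13 with log2(TPM + 0.1), 0.08 without both Xist libraries and -0.04 to 0.08 on leaving out 1 library (0.08 without wildtype 3). The log2 ratio of the summed lineage genes was -0.16 on deposited TPM and 0.00 with TMM factors, that of C1q -0.06 and 0.06, and that of class II genes -0.02 and 0.11. At an unadjusted p under 0.05 the main edgeR fit gave 3 members, 1 higher in knockouts and 2 lower. With log2(TPM + 1) and log2(TPM + 0.1) there was 1 each, lower in knockouts. The replicate block gave 2, leaving out both Xist libraries 2, and leaving out 1 library 2 to 4. Without knockout 3, wildtype 1 or wildtype 2, 0 members were higher at that mark.

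Of 713 member values 655 kept their direction and 58 did not, in 16 members. With log2(TPM + 1) and log2(TPM + 0.1) the values were -0.107 and -0.129 for Cd68, -0.129 and -0.162 for Aif1, -0.00587 and -0.00756 for C1qb, -0.0775 and -0.093 for C1qc, and -0.0237 and -0.0319 for Fcgr2b; with log2(TPM + 0.1) alone -0.00243 for Ptprc and -0.00114 for Laptm5. Without both Xist libraries they were -0.0815 for Laptm5, 0.152 for Trem2, -0.0308 for Cd68, 0.109 for C1qa, 0.150 for Fcer1g, 0.0841 for Tyrobp and 0.0806 for Ctss. Total counts gave -0.00756 for Cd68 and -0.0111 for Aif1, the block -0.0146 for Aif1 and 0.0108 for Fcer1g, limma-voom -0.0672 for Aif1 and 0.00429 for Fcer1g, and upper-quartile scaling 0.00441 for Fcer1g and 0.0125 for Tyrobp. On leaving out 1 library the ranges were -0.026 to 0.249 for Ptprc, -0.0196 to 0.354 for Laptm5, -0.183 to 0.099 for Lyve1, -0.405 to 0.316 for Trem2, -0.0354 to 0.101 for Cd68, -0.319 to 0.205 for Aif1, -0.108 to 0.0476 for C1qa, -0.0533 to 0.13 for C1qc, -0.409 to 0.393 for Fcgr1, -0.0986 to 0.0907 for Fcer1g, -0.13 to 0.115 for Tyrobp, -0.14 to 0.022 for Ctss, -0.451 to 0.152 for Itgam and -0.235 to 0.083 for H2-Eb1. Members that kept their sign moved as well: without 1 library the ranges were -0.34 to -0.261 for Lyz2, -0.216 to -0.153 for Csf1r, 0.275 to 0.495 for Cd74, 0.0518 to 0.361 for Csf1, 0.0831 to 0.399 for Mrc1, -0.431 to -0.0547 for Fcgr3 and 0.0161 to 1.05 for Itgax.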

Other observations

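Some immune genes were high in a few libraries; they were chosen after their values were seen. Pax5, a B cell transcription factor, measured 0.0629, 0.834, 0.276 and 10.6 CPM in knockout 1 to 4, against 0.244, 0.468, 0.196 and 10.5 CPM in wildtype 1 to 4. Knockout 4 and wildtype 4 stood alone. They carry the same number in their labels. Over 18548 genes their deviations from the group means correlated at 0.0138, and the best partner of knockout 4 was another wildtype library. Whether knockout 4 and wildtype 4 share a litter or batch was not tested. Cd8a was high in knockout 2 and knockout 3, at 5.06 and 4.21 CPM, and lay between 0.251 and 2.21 CPM in the other 6 libraries. Chil3, a chitinase-like protein of myeloid cells, measured 0.0629, 7.12, 0.00 and 0.00 CPM in knockout 1 to 4, against 10.7, 0.00, 6.68 and 1.92 CPM in wildtype 1 to 4.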
